A study of Homo sapiens with 4 samples.

Results

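The genes described here are 10 parts of the switch that turns integrins on and couples them to actin: the talins TLN1 and TLN2, the kindlins FERMT1, FERMT2 and FERMT3, the adaptors KANK1 and KANK2, vinculin (VCL) and the small GTPases RAP1A and RAP1B. They were chosen by name and matched to the deposited count table through their Ensembl gene identifiers with the version removed, which found all 10 members among its 60721 genes. All 10 passed the filter on low counts and all 10 have a row in the authors' deposited table of normalized log2 CPM (CPM being counts scaled to library size), so 0 are missing from it. RNA came from Hs578T, an established line of breast carcinoma cells, that received GFP together with either a control RNA without a target (SCR) or the TLN1 siRNA (siTLN1). The RNA dose was 1.6 µM, the cells were collected after 48 h, and each group held 2 libraries. Both groups received GFP, and whether transfected cells were selected is not given in the sources used here.

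As background, integrins are receptors for the extracellular matrix that rest in a low-affinity state. RAP1, once loaded with GTP, brings talin to the membrane, and the talin head then binds the tail of the integrin beta subunit together with a kindlin. The talin rod unfolds under force and recruits vinculin, which adds links to actin, while KANK proteins bind the rod and connect adhesions to microtubules at the cell cortex. Talin-1 is the widespread talin, talin-2 is its paralog, kindlin-2 is the kindlin of most adherent cells, kindlin-1 is that of epithelia and kindlin-3 that of blood cells.

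The 4 libraries held between 31854322 and 46353297 counts. The count columns carry 2 numbers, each found once per group, and they are called here library a and library b of their group. No label says that equal letters share a preparation. Mesenchymal genes were abundant, with 5 of 5 markers tested and a summed level of 33027 to 35919 CPM in SCR and 34829 to 40364 CPM in siTLN1. Most of this sum was FN1, at 23553 to 26298 CPM in SCR and 26960 to 32369 CPM in siTLN1. The labels call the cells epithelial, but of the 5 epithelial markers EPCAM reached at most 0.144 CPM and ESRP1 at most 0.0574 CPM, CDH1 ran from 0.409 to 0.851 CPM, and KRT8 and KRT18 were expressed (summed list 122 to 152 CPM in SCR and 131 to 142 CPM in siTLN1). Of the mesenchymal markers, CDH2 (log2 fold change −0.89) and SPARC (−0.48) passed the test described below and were lower in siTLN1. FN1 (0.25), VIM (0.023) and ZEB1 (−0.088) did not pass. The part of these markers in the results was not tested. The 4 endothelial markers summed to at most 6.20 CPM in any library. Since the samples are bulk RNA, fewer cells with a transcript and less of that transcript per cell cannot be told apart. The series' text calls the libraries of a group biological replicates without naming separate cultures, so p-values rest on the spread between these libraries. The fit also draws the spread of each gene towards that of the other tested genes.

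Sequences are shown first because they bear on how well the members can be told apart. They also show which members hold a word that was chosen on the fold changes of these same libraries. The coding sequences of TLN1 and TLN2 (7623 and 7626 bases in GENCODE 29, on GRCh38) were identical at 71.9% of aligned bases. The kindlins matched each other at 63% to 67.5%, KANK1 and KANK2 at 69.2%, and RAP1A and RAP1B, the closest pair, at 83%. The longest run without a difference was 25 bases between the talins and 26 bases between the RAP1 genes, and it was 14 to 20 bases in the other families. Reads that fall wholly inside such a run cannot be assigned to 1 paralog, and these runs are short beside the genes. Only coding sequences were searched for runs, so the rest of the transcripts was not compared. The runs were also not set against the length of the reads. Both runs are given 5′ to 3′ in the sense of the transcript, where the first spans the junction of exons 47 and 48 of TLN1 (chr9:35703660-35703782, minus strand) and the second lies in exon 5 of RAP1A (chr1:111703336-111703361, plus strand).
TLN1 and TLN2: ctgccaaggtgatggtgaccaatgt
RAP1A and RAP1B: gagcaatttacagcaatgagggattt

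The word GACAACA is shown because an earlier analysis of these same libraries found that genes holding it had lower fold changes, so it was chosen on these data and supports nothing here. It was searched on the transcript strand of 1 GENCODE 29 transcript per protein-coding gene, the one with the longest coding sequence. Of 19940 such transcripts, 21% held it anywhere, 14.9% in the coding sequence and 6.45% in the 3′ UTR. Among tested genes, the median log2 fold change was −0.098 for the 952 genes with the word in the 3′ UTR, of which 16.7% were called lower in siTLN1. For the 1871 genes with it in the coding sequence but not the 3′ UTR, the class of TLN1 and KANK1, the median was −0.024 and 6.25% were called lower. For the 10060 genes with it in neither the 3′ UTR nor the coding sequence the median was 0.019, with 2.87% called lower. Of the 10 members, TLN1, FERMT1, KANK1 and RAP1A held it, and the chosen transcripts of the other 6 did not. No other annotated transcript of those 6 held it either. Of the annotated transcripts searched, it was in 2 of 8 for TLN1, 3 of 4 for FERMT1, 6 of 10 for KANK1 and 1 of 4 for RAP1A. The siRNA sequence is not given in the sources used here. Capitals mark the word, or the TLN2 bases aligned with it, inside 29 bases of transcript.
TLN1 coding sequence, exon 41 of 57, chr9:35706037-35706043, minus strand: gtagaggacctGACAACAaccctcaacga
TLN2 coding sequence aligned with it, exon 42 of 58, chr15:62776829-62776835, plus strand: gtggatgacatCATGGTGacgctgaacga
FERMT1 coding sequence, exon 14 of 15, chr20:6079487-6079493, minus strand: gggattccagtGACAACAtggagattcac
FERMT1 3′ UTR, exon 15, chr20:6077066-6077072, minus strand: ctggactaacaGACAACAtacattcaccg
KANK1 coding sequence, exon 4 of 13, chr9:711061-711067, plus strand: ccaacagtgatGACAACAagcagtgcccc
RAP1A 3′ UTR, exon 8 of 8, chr1:111713327-111713333, plus strand: aaaatacatcaGACAACAtagaatagttt
TLN2 differed from TLN1 at 11 of these 29 bases, 6 of them within the word. FERMT1 was the only member with a copy in both regions, whereas TLN1 and KANK1 had 1 copy each in coding sequence and RAP1A had 1 in its 3′ UTR.

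Between the groups, 2 of the 10 members passed the test, TLN1 and FERMT1, and both were lower in siTLN1. The test was edgeR's quasi-likelihood test over all 16137 tested genes with Benjamini-Hochberg adjustment and a threshold of 0.05, by which 6.07% of all tested genes were called, 2.30% higher and 3.77% lower. The median log2 fold change was −0.023 over the members and 0.0033 over all tested genes. The CPM of the groups did not overlap for 5 of 10 members (TLN1, FERMT1, FERMT2, KANK1 and VCL), against 48.4% of all tested genes, so that share was near the background. With 2 libraries a group, permuting the labels exactly cannot give a two-sided p below 0.33 for any 1 gene. Of the 4 members that hold the word, FERMT1 and the siRNA target TLN1 passed, and KANK1 and RAP1A did not. Over all tested genes, 16.7% of those with the word in the 3′ UTR were called lower. With the word in the coding sequence but not the 3′ UTR, 6.25% were. The word was chosen on these same data, so this split tests nothing about it. A limma-trend fit with the replicate number as a block called 22.6% of all genes and 5 of 10 members, although no label states that the numbers pair libraries.

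**Figure D1:**
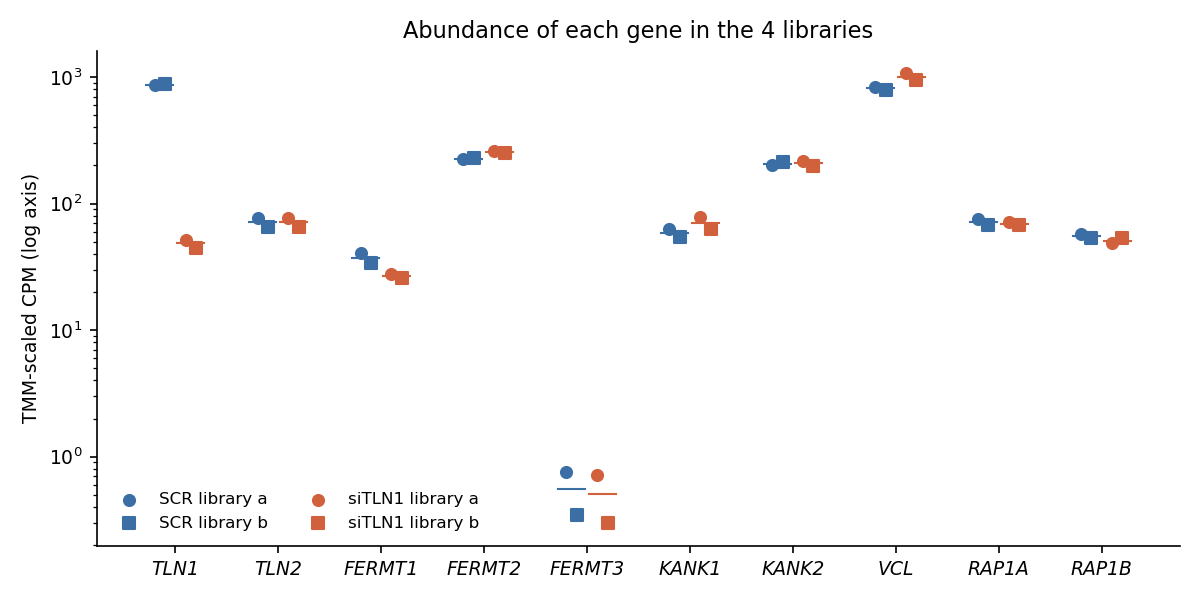
Abundance of the 10 genes in each of the 4 libraries, as TMM-scaled CPM on a log axis (blue SCR, orange siTLN1, circles library a, squares library b, lines the group means). TLN1 drops from 868 and 874 CPM to 51.9 and 44.8 CPM, VCL lies at 837 and 785 CPM in SCR and at 1069.6 and 942 CPM in siTLN1, and FERMT3 is below 1 CPM.

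TLN1 encodes talin-1, the target of the siRNA, and its row checks the labels. TLN1 (ENSG00000137076.21, chr9:35696948-35732195, minus strand) was at 868 and 874 CPM in SCR libraries a and b and at 51.9 and 44.8 CPM in siTLN1 libraries a and b. Both siTLN1 libraries were far below both SCR libraries, with 1888 and 2104 raw counts left. The mean went from 871 ± 3.95 to 48.3 ± 5.02 CPM (SD, n = 2 each), an 18.0-fold fall, and the log2 fold change was −4.17 with a 95% interval of −4.41 to −3.93 (edgeR adjusted p 3.89e-13). In the authors' deposited log2 CPM, TLN1 was at 9.76 and 9.77 in SCR replicates 1 and 2 and at 5.70 and 5.49 in siTLN1 replicates 1 and 2. Among the 10475 genes averaging at least 5 CPM, the 3 nearest to TLN1 by distance between centred log2 CPM profiles over the 4 libraries were CLSTN2 (distance 1.84), BCL7B (2.03) and RCN2 (2.28). Their log2 fold changes of −2.40, −2.15 and −1.90 were all smaller in size than that of TLN1. Distance and fold change come from the same 4 libraries, so these values restate the choice and show no further likeness to TLN1.

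TLN2 encodes talin-2, which binds integrin tails and actin as talin-1 does. TLN2 (ENSG00000171914.16, chr15:62390526-62844631, plus strand) was at 77.4 and 65.3 CPM in SCR libraries a and b and at 76.6 and 65.8 CPM in siTLN1 libraries a and b. The groups overlapped almost completely, and library a was above library b in both. Its log2 fold change was −0.0041, and the 95% interval of −0.24 to 0.23 allows a level between 0.849 and 1.17 times that of SCR (edgeR adjusted p 0.993). Its sign turned with no filter on low counts (0.0074) and without SCR library a (0.13) or siTLN1 library b (0.11).

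Levels of different genes were compared per length, as TPM computed from the deposited exon lengths (counts per kilobase, scaled to the same total in each library). TLN1 and TLN2 together stood at 409 and 391 TPM in SCR and at 41.5 and 36.3 TPM in siTLN1. By these lengths 9.71% of the talin transcript level remained, and this percentage too depends on the lengths used. The share of TLN1 among talin transcripts was 94.8% and 95.6% in SCR and 52.6% and 52.8% in siTLN1. After knockdown the talins were thus at like levels per length, with TLN1 at 21.8 and 19.1 TPM and TLN2 at 19.7 and 17.1 TPM. The choice of length sets which of them leads: with the lengths of the GENCODE 29 transcripts, an alternative chosen after seeing the data, the mean TLN1 share in siTLN1 was 47.8%, and with counts not divided by length it was 40.4%. No test was made of these shares.

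**Figure D2:**
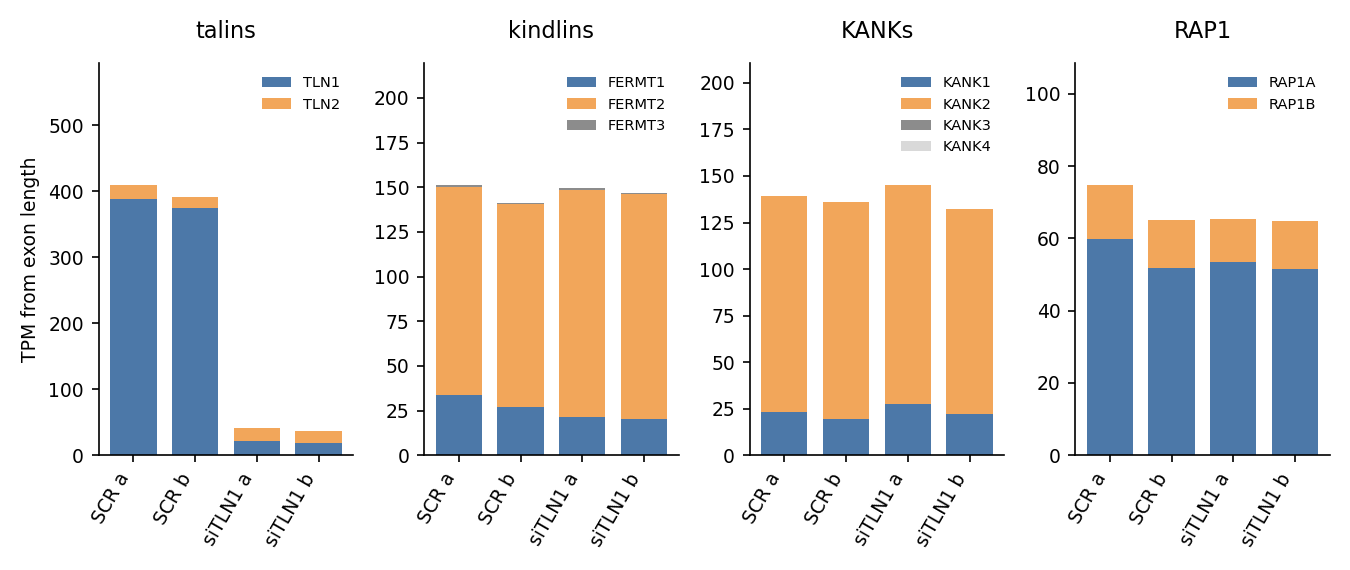
Summed level of each family per library, in TPM computed from the deposited exon lengths, with 1 colour per paralog and a separate axis from 0 for each family. The talin total drops to 9.71% of its SCR mean, while the kindlin and KANK totals have siTLN1 means at 101% of SCR and the RAP1 total at 93.1%.

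Kindlin-1, encoded by FERMT1, was the second member that fell. FERMT1 (ENSG00000101311.15, chr20:6074845-6123544, minus strand) was at 40.6 and 33.9 CPM in SCR libraries a and b and at 27.6 and 25.8 CPM in siTLN1 libraries a and b. Both siTLN1 libraries lay below both SCR libraries. Its mean was 37.3 ± 4.74 CPM in SCR and 26.7 ± 1.24 CPM in siTLN1 (SD, n = 2 each), or 71.6% of SCR. The log2 fold change was −0.48 and its 95% interval −0.71 to −0.25 (edgeR adjusted p 0.0139). The call held in all 9 fits that kept the 4 libraries, where the adjusted p reached at most 0.0391. It was lost on leaving out SCR library a (log2 fold change −0.35, adjusted p 0.0890), siTLN1 library a (−0.53, 0.0724) or siTLN1 library b (−0.43, 0.0796), and it held without SCR library b (−0.61, 0.000179). FERMT1 shares no exon bases with another gene. Among the epithelial markers, whose part in this result was not tested, KRT8 was at a log2 fold change of −0.24, KRT18 at 0.024 and CDH1 at 0.83, and none of these 3 passed.

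FERMT2 encodes kindlin-2 and was the leading kindlin. FERMT2 (ENSG00000073712.15, chr14:52857268-52952435, minus strand) was at 224 and 228 CPM in SCR libraries a and b and at 259 and 252 CPM in siTLN1 libraries a and b. The siTLN1 libraries lay above the SCR libraries without overlap, yet the difference did not pass. Its log2 fold change was 0.18 with a 95% interval of −0.013 to 0.37 (edgeR adjusted p 0.292). FERMT3 encodes kindlin-3 (ENSG00000149781.12, chr11:64206678-64223886, plus strand) and had only 24 and 12 counts in SCR libraries a and b and 26 and 14 in siTLN1 libraries a and b. These are 0.755 and 0.345 CPM against 0.714 and 0.298 CPM, so the groups overlapped and library a was the higher one in each. The interval of its log2 fold change ran from −1.22 to 0.89, which limits what depth can show for this gene (edgeR adjusted p 0.904). Blood cell markers, whose part in the FERMT3 counts was not tested, were near 0 for PTPRC (0.345 to 0.629 CPM), LAPTM5 (0.319 to 0.472 CPM) and CD53 (at most 0.0275 CPM). CORO1A was at 2.99 to 4.53 CPM and LCP1 at 91.9 to 128 CPM, and the summed level of the 5 markers was 96.0 to 132 CPM in SCR and 108 to 130 CPM in siTLN1.

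Per length, FERMT2 made up 77.1% and 80.7% of kindlin transcripts in SCR and 85.1% and 85.8% in siTLN1. FERMT1 went from a mean of 20.6% to 14.1%, and FERMT3 stayed below 1% throughout. The FERMT1 share depends on the length used, with means of 14.1% and 9.44% for counts not divided by length and 9.40% and 6.16% with GENCODE 29 transcript lengths, and it was lower in siTLN1 each time. Kindlin transcripts in total were 146 ± 7.12 TPM (SD, n = 2) in SCR and 148 ± 2.21 TPM (SD, n = 2) in siTLN1, a difference smaller than the spread in SCR.

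Vinculin, encoded by VCL, binds the unfolded talin rod and actin. VCL (ENSG00000035403.17, chr10:73995193-74121363, plus strand) was at 837 and 785 CPM in SCR libraries a and b and at 1069.6 and 942 CPM in siTLN1 libraries a and b. Both siTLN1 libraries exceeded both SCR libraries, and library a was above library b in each group. The mean was 811 ± 36.7 CPM in SCR and 1006 ± 90.3 CPM in siTLN1 (SD, n = 2 each), 1.24 times that of SCR, and the log2 fold change of 0.31 had a 95% interval of 0.092 to 0.53, which covers this gene alone and is not adjusted. It did not pass the threshold over all genes (edgeR adjusted p 0.0896, unadjusted p 0.00824). DESeq2 (adjusted p 0.0461) and the fit with each library's gene-length trend removed (adjusted p 0.0372) called it higher. So did limma-trend with the replicate block (adjusted p 0.000468), a fit that called 22.6% of all tested genes and assumes a pairing no label states. Of the exon bases of VCL, 11.1% also lie in exons of AP3M1 on the opposite strand, and the counting used no strand option. AP3M1 itself was at a log2 fold change of 0.060 (edgeR adjusted p 0.803).

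**Figure D3:**
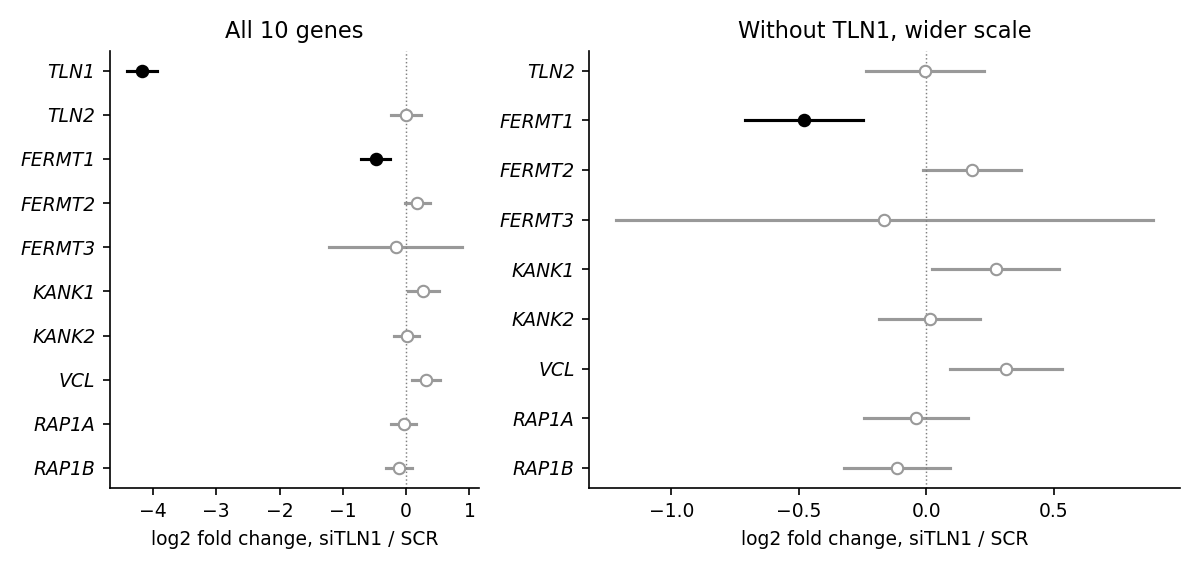
Log2 fold change of siTLN1 against SCR with its 95% interval for all 10 genes (left) and for the 9 genes other than TLN1 on a wider scale (right), where filled black points passed an adjusted p of 0.05. TLN1 (−4.17) and FERMT1 (−0.48) pass, the intervals of KANK1 and VCL exclude 0 without passing, and that of FERMT3 is the widest.

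KANK1 and KANK2 encode adaptors that bind the talin rod and draw the cortical microtubule complex to the rim of adhesions. KANK1 (ENSG00000107104.19, chr9:470291-746106, plus strand) was at 62.6 and 54.3 CPM in SCR libraries a and b and at 78.3 and 62.8 CPM in siTLN1 libraries a and b. The groups barely stood apart, as the higher SCR library and the lower siTLN1 library nearly met. Its log2 fold change was 0.27 with a 95% interval of 0.023 to 0.52, and it did not pass (edgeR adjusted p 0.204). Without SCR library a it was 0.38 and passed (adjusted p 0.0489), and without siTLN1 library a it was 0.10 (adjusted p 0.833). A second gene on the same strand shares 5.16% of its exon bases.

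KANK2 (ENSG00000197256.10, chr19:11164267-11197791, minus strand) was at 200.4 and 211 CPM in SCR libraries a and b and at 216 and 199 CPM in siTLN1 libraries a and b. The siTLN1 libraries lay on either side of the SCR libraries. Its log2 fold change was 0.012, and the 95% interval of −0.18 to 0.21 allows a level of 0.880 to 1.16 times SCR (edgeR adjusted p 0.964). Of the other KANK genes, KANK4 had 0 to 3 counts per library and KANK3 had 0 counts in all 4. For KANK3 a count of 0 allows up to 3 counts, or 0.0638 to 0.0944 CPM in these libraries, by counting error only. Neither was tested, and neither has a row in the authors' deposited log2 CPM. KANK2 made up 83.3% and 85.8% of KANK transcripts per length in SCR and 81.1% and 83.1% in siTLN1.

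RAP1A and RAP1B encode the GTPases upstream of talin, whose activity depends on bound nucleotide and is not seen in transcript levels. RAP1A (ENSG00000116473.14, chr1:111542218-111716691, plus strand) was at 74.9 and 67.8 CPM in SCR libraries a and b and at 71.0 and 67.6 CPM in siTLN1 libraries a and b. Its groups overlapped, and the log2 fold change was −0.042 with a 95% interval of −0.24 to 0.16 (edgeR adjusted p 0.874). RAP1B (ENSG00000127314.18, chr12:68610855-68671901, plus strand) was at 57.4 and 53.0 CPM against 48.7 and 53.0 CPM in the same order, again with overlap. Its log2 fold change of −0.12 had a 95% interval of −0.32 to 0.091 (edgeR adjusted p 0.572). RAP1A made up 80.0% and 79.7% of RAP1 transcripts per length in SCR and 81.7% and 79.6% in siTLN1, but RAP1B carries a 3′ UTR of 12655 bases in the GENCODE 29 transcript, and by counts alone the mean RAP1A share in SCR was 56.4%. Reads that map to several places were not counted under the options in the file header, so reads shared with RAP1 copies are lost. Of those copies, RAP1BL had 14 to 26 counts per library, RAP1AP had 0 to 4 and RAP1BP1 had 1 to 2.

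In SCR the order of the members per exon length was TLN1 (381 TPM), VCL (351), KANK2 (116), FERMT2 (115), RAP1A (55.8), FERMT1 (30.1), KANK1 (21.3), TLN2 (19.1), RAP1B (14.1) and FERMT3 (0.782), as mean TPM. This order depends on the length used. The exon lengths are 9876 bases for TLN1 and 9992 for VCL, and the transcripts searched for the word have 8823 and 5490. With the transcript lengths VCL would stand above TLN1 in SCR, so which gene leads there is not settled. By mean CPM in SCR, FERMT2 (226) stood above KANK2 (206) and FERMT1 (37.3) below KANK1 (58.4), while TLN1 (871) stayed above VCL (811). Per exon length, the libraries of KANK2 and FERMT2 overlapped, as did those of KANK1 and TLN2, and the other neighbours did not overlap within the group. TLN1 and VCL stood at percentiles 97.7 and 97.5 of the tested genes and FERMT3 at percentile 10.6. In siTLN1, again per exon length, VCL led with a mean of 422 TPM and TLN1 moved to rank 7 of 10. It stood there at percentile 58.8, with a mean between those of FERMT1 (20.9 TPM) and TLN2 (18.4 TPM). The siTLN1 libraries of TLN1 overlapped with those of FERMT1 and with those of TLN2, and the order of TLN1 and TLN2 turns with the other lengths given above. Apart from the targeted gene, the largest shift among the members was that of FERMT1, from percentile 66.8 to 59.2. KANK1 came next, from percentile 58.9 to 63.1, and the other members shifted less.

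The members also differed by library. For 6 of 10 (TLN2, FERMT1, FERMT3, KANK1, VCL and RAP1A) library a exceeded library b in CPM within both groups, and for 0 of 10 was it the lower one in both. Over all tested genes these shares were 31.4% for a above b in both, and 63.5% for either order held in both. For each of the 10 members, the log2 fold changes covered a wider range over the 4 fits without 1 library than over the 9 alternatives that kept all 4.

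**Figure D4:**
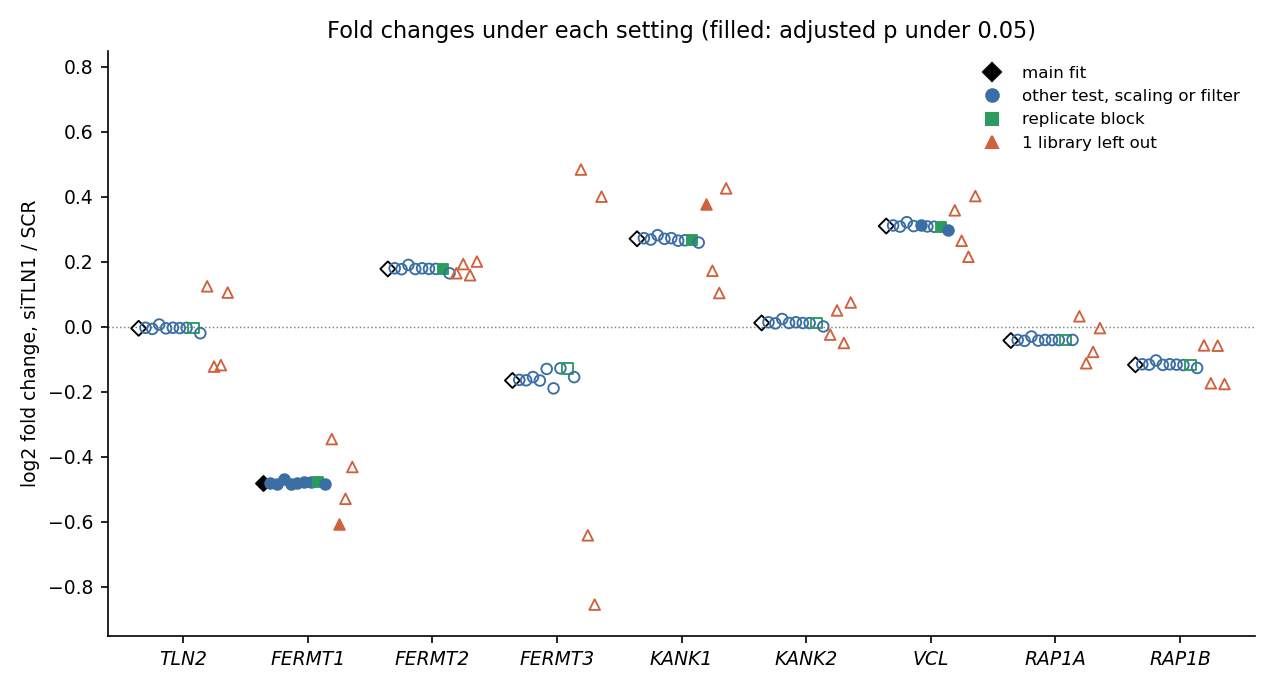
Log2 fold change of the 9 genes other than TLN1 under the reported fit (black), 8 other tests, scalings or filters (blue), the fit with a replicate block (green) and the 4 fits without 1 library (orange triangles), where filled points passed an adjusted p of 0.05. FERMT1 stays negative under every setting, between −0.61 and −0.35, and FERMT3 spreads from −0.85 to 0.48.

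The wider pathway was described with lists of 69 partner genes, 62 of them tested, of which 3 passed: RASSF5 rose, and SORBS2 and ITGB1BP1 fell. These 3 of 62 are a smaller share than the 6.07% called over all tested genes, so the count is not a result about the partners. The median log2 fold change of the tested partners was −0.045. Among RAP1 regulators and effectors 1 of 21 tested genes was higher and 0 lower, at a median of −0.063. Among talin and vinculin binding proteins 0 of 17 were higher and 1 was lower (median −0.089), and among the other proteins that bind integrin tails 0 of 7 were higher and 1 was lower (median −0.047). For KANK and cortical microtubule partners 0 of 10 passed edgeR (median −0.016), and for kindlin partners 0 of 7 (median −0.11, all 7 negative). In both of these lists 0 genes had an unadjusted edgeR p under 0.05, and DESeq2 and both limma fits without a block called 0. The other lists had more such genes. They were 8 of 17 talin and vinculin binding proteins, 6 of 21 RAP1 regulators and effectors and 1 of 7 other integrin tail binding proteins. Among all 62 tested partners there were 15. The same share over all tested genes was not computed, so these counts are not a result about the partners.

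**Figure D5:**
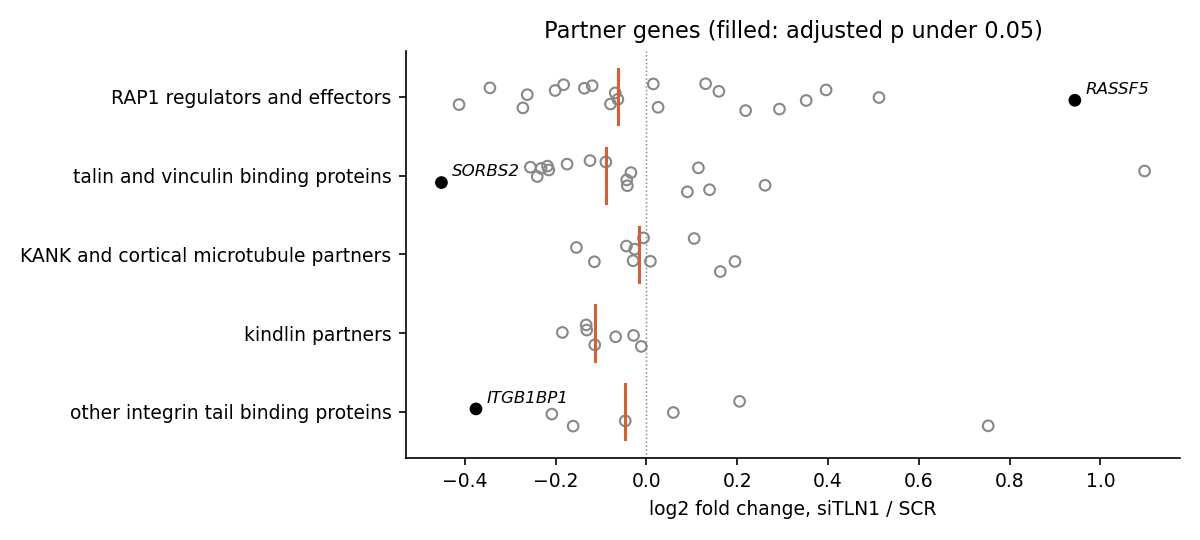
Log2 fold change of siTLN1 against SCR for the 62 tested partner genes by list, with the list median as an orange line and filled points for an adjusted p under 0.05. RASSF5 (0.94) lies to the right and SORBS2 (−0.45) and ITGB1BP1 (−0.38) to the left, and the list medians lie between −0.11 and −0.016.

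RASSF5, an effector that binds GTP-loaded RAP1, was at 2.89 and 3.50 CPM in SCR libraries a and b and at 5.96 and 6.36 CPM in siTLN1 libraries a and b. The groups did not overlap, and the log2 fold change of 0.94 (standard error 0.17) passed under every setting tried (edgeR adjusted p 0.00229). SORBS2, an adaptor of the vinexin family that binds vinculin, was at 64.7 and 67.0 CPM against 48.7 and 47.6 CPM in the same order, which is −0.45 on the log2 scale (standard error 0.094, edgeR adjusted p 0.00815). Its call was lost without siTLN1 library a (adjusted p 0.0810) or siTLN1 library b (0.0576), where the log2 fold change was −0.47 and −0.43, close to the value over all 4 libraries.

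ITGB1BP1, which encodes ICAP-1 and competes with talin for the integrin beta-1 tail, was at 84.5 and 81.1 CPM in SCR libraries a and b and at 59.9 and 67.7 CPM in siTLN1 libraries a and b. Both siTLN1 libraries lay below the SCR libraries, by a log2 fold change of −0.38 (standard error 0.097, edgeR adjusted p 0.0291). The call ended when low counts were not filtered (adjusted p 0.0776), when SCR library a was left out (0.0708) and when siTLN1 library a was (log2 fold change −0.29, adjusted p 0.359). As 33.1% of its exon bases also lie in exons of ASAP2 on the opposite strand, its counts are uncertain, and ASAP2 was at a log2 fold change of −0.12 (edgeR adjusted p 0.633). APBB1IP encodes RIAM, the RAP1 effector that carries talin to the membrane, and it was picked after its values were seen. It was at 6.61 and 6.72 CPM in SCR libraries a and b and at 6.35 and 5.30 CPM in siTLN1 libraries a and b, a log2 fold change of −0.20 with a 95% interval of −0.52 to 0.12 that did not pass (edgeR adjusted p 0.506).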

How the data were processed

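Raw counts per gene were deposited by the authors for 4 libraries, made with featureCounts 2.0.0 on GENCODE 33 (GRCh38) in paired-read mode without strand or multi-mapping options, per the file headers, although the kit is stranded per the labels. STAR 2.7.9a and edgeR 3.34.1 are named in the submitters' processing notes. The authors also deposited log2 CPM values for 16137 genes, and how these were made is not stated. Exon lengths, a column in another unit, come from the same count table. Groups came from sample titles. The count columns carry numbers that match no label and were mapped to groups only, and 0 columns were left unmapped. By value, libraries a and b correspond to replicates 1 and 2 of the deposited log2 CPM. For TLN1 in siTLN1, 51.9 and 44.8 CPM stand against 5.70 and 5.49 on the log2 scale. The replicate block thus joins the libraries with equal letters.

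Genes were kept by filterByExpr (minimum count 10, minimum total 15), scaled by TMM and compared with edgeR 4.0.16 (R 4.3.3, glmQLFit robust, glmQLFTest), with Benjamini-Hochberg adjustment over all tested genes and a threshold of 0.05. Intervals of log2 fold changes (95%) follow from the fit. The biological coefficient of variation was 0.0805. As alternatives, scaling used RLE or library totals, the filter was dropped or set to a mean of 10 counts, and further fits were DESeq2 1.42.0, limma-voom and limma-trend (limma 3.58.1), a gene-length trend removed (span 0.3), each library left out and a replicate block. Procedures were tested on simulated data. Named genes were the 10 members, KANK3, KANK4, up to 4 passing genes per partner list with the smallest p and the 3 genes nearest TLN1. Members and lists were chosen with earlier results of these data known. Sequences come from GENCODE 29.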

Additional observations from a re-analysis of the deposited data

How the results depend on the processing

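TLN1 kept its direction and call under all 9 alternatives with 4 libraries (−4.18 to −4.16) and without each library in turn (−4.28 to −4.07). In fits without a library the lone sample of an arm is assumed to vary like the other group. Across these, log2 fold changes ran from −0.12 to 0.13 for TLN2, from −0.85 to 0.48 for FERMT3, from −0.049 to 0.075 for KANK2 and from −0.11 to 0.033 for RAP1A, so these 4 signs are not fixed. TLN2 also turned with no filter (0.0074). FERMT1, FERMT2, KANK1, VCL and RAP1B kept their direction throughout. The genes called numbered 980, and 347 to 1116 without 1 library (347 without siTLN1 library a), with 1 to 2 members and 1 to 4 partners. Removing the length trend gave 1518 genes (976 of them among the 980) and 5 partners. With TLN1 at a mean of 95.2% of talins in SCR and 52.7% in siTLN1, counts not divided by length gave 92.4% and 40.4%, and GENCODE 29 transcript lengths 94.3% and 47.8%. The cause of these changes was not tested, except that the lengths enter the shares directly.

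No label says that replicate numbers pair samples. Over all genes, the difference of replicate 1 from 2 in SCR had a correlation of 0.19 with that in siTLN1, and of 0.53 over genes at 5 CPM or more. With the replicate block, limma-trend on the deposited log2 CPM called 3650 genes (22.6%), 5 members and 19 partners, adding FERMT2 (0.18, adjusted p 0.0254), KANK1 (0.27, 0.000944) and VCL (0.31, 0.000468) to TLN1 and FERMT1, all 3 higher in siTLN1.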
